A study of Homo sapiens with 24 samples.

Results

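The response of LATS1/2-dKO cells to a stiff matrix was taken from 6 of the 24 messenger RNA libraries of a study of HEK293A, an adherent cell line of human embryonic kidney origin. All cells grew in DMEM with 10% FBS on hydrogels coated with fibronectin. The 3 libraries labelled LATS1/2-dKO on 40 kPa gels, a stiff matrix, were set against the 3 labelled LATS1/2-dKO on 1 kPa gels, a soft one. Members were the genes with an FPKM, the fragments per kilobase of transcript scaled to the library's total, of at least 1 in at least 3 of these 6 libraries, which kept 14243 of 58174 gene symbols. The same contrast in RAP2A/B/C-tKO, YAP/TAZ-dKO and WT cells, with 3 libraries on each gel, served for comparison. The knockout lines carry LATS1 and LATS2, RAP2A, RAP2B and RAP2C, or YAP and TAZ as the targeted genes, per the labels. The editing method and the number of clones per line are not stated in the labels. The series design text calls the 3 libraries of a group biological replicates, and nothing more is said of how they were grown apart.

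LATS1 and LATS2 are kinases of the Hippo pathway that phosphorylate the coactivators YAP and TAZ (gene WWTR1) and so keep them out of the nucleus. Unphosphorylated YAP and TAZ enter the nucleus and work with TEAD transcription factors, whose textbook targets include CTGF, CYR61 and ANKRD1. Cells on a stiff matrix spread and hold more YAP and TAZ in the nucleus than cells on a soft one, and RAP2 GTPases act upstream of LATS1 and LATS2 on soft matrix. The contrast asks which genes still follow stiffness when these kinases are targeted.

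The 6 libraries held an estimated 19.75 to 37.17 M fragments, against 19.75 to 43.2 M in the whole series. The 40 kPa replicate 1, at 19.75 M, was the shallowest and stood apart by GC content. Its change from the 1 kPa mean ran against gene GC content (rank correlation over genes -0.654), against 0.175 and 0.043 in 40 kPa replicates 2 and 3. The SD of the log2 difference between it and the other 40 kPa libraries was 0.616 and 0.594, while the other pairs of the 6 libraries gave 0.386 to 0.458. Results are therefore given with and without this library. LATS1 had 5.69 ± 0.299 FPKM on 40 kPa and 5.18 ± 0.307 FPKM on 1 kPa in LATS1/2-dKO cells (SD, n = 3 each), against 12.3 ± 0.156 and 12.9 ± 1.03 FPKM in WT cells (SD, n = 3 each). LATS2 had 3.40 ± 0.791 and 3.19 ± 0.228 FPKM, against 2.78 ± 0.738 and 2.15 ± 0.358 FPKM in WT cells (SD, n = 3 each), so its messenger RNA level does not tell the line from WT. A small edit can leave the messenger RNA in place, and FPKM values carry no sequence with which to see it.

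Few genes were called between the gels in LATS1/2-dKO cells with all 6 libraries, and most of these calls were falls. With limma on log2(FPKM + 1), fitted across all 24 libraries, 120 of 14243 genes were called at an adjusted p below 0.05, which is 0.843% of those tested. On 40 kPa against 1 kPa gels 13 genes rose, 0.0913% of those tested, and 107 fell, 0.751%. The changes were small: their median size was 0.36 for the rises and 0.35 for the falls on the log2 scale, and 25 of the 120 reached 0.5. All 120 had 40 kPa libraries outside the range of the 1 kPa libraries, as did 16.3% of all genes tested (4.07% higher and 12.3% lower). The balance of directions depended on scaling, since the median of all genes stood at -0.03. After scaling to a common median ratio 15 genes were higher and 37 lower, and after a correction for GC content 42 were higher and 46 lower.

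Without 40 kPa replicate 1, 33 genes were called (0.232% of those tested), 3 higher (0.0211%) and 30 lower (0.211%), and 26 of them were among the 120. Leaving out any of the 1 kPa libraries in place of it gave 17 to 35 calls, leaving out 40 kPa replicate 2 gave 60, and leaving out 40 kPa replicate 3 gave 244. Among the 42 called genes named here, 287 of 588 values under the 14 alternatives did not pass the threshold. No sign changed, but groups without overlap keep their sign when libraries are left out or the same values are refitted. Most of the alternatives thus could not have changed a sign. When the other GC-skewed library of the series, RAP2A/B/C-tKO on 40 kPa replicate 3, was left out as well, 549 genes were called (3.85%), 210 higher (1.47%) and 339 lower (2.38%), 105 of them among the 120. These 105 were 12 of the 13 rises and 93 of the 107 falls. The RAP2A/B/C-tKO library holds no LATS1/2-dKO value, so every log2 change stayed as it was without 40 kPa replicate 1. Only the spread that the groups share was altered, so calls made in this setting add no further LATS1/2-dKO data. The plot of the 120 genes with and without the replicate shows both estimates.

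**Figure D1:**
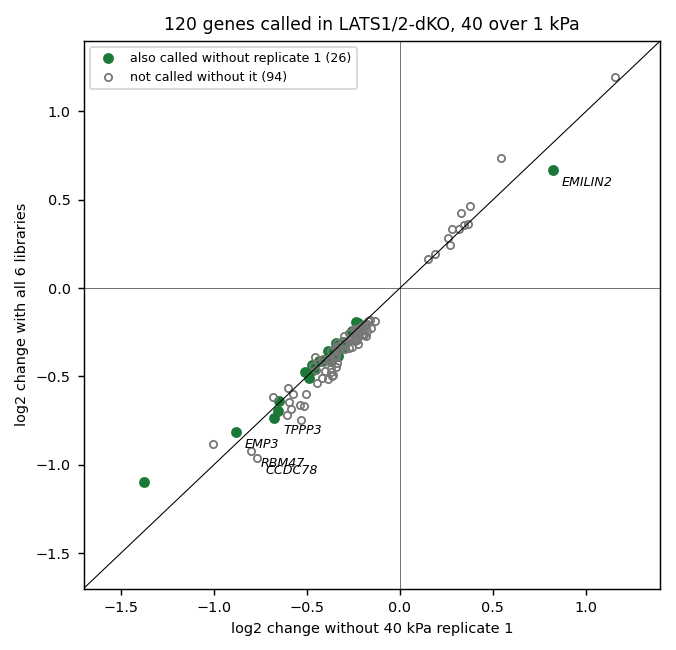
Log2 change of FPKM + 1 on 40 kPa over 1 kPa in LATS1/2-dKO cells for the 120 called genes, with all 6 libraries (vertical axis) against the estimate without 40 kPa replicate 1 (horizontal axis). Filled points are the 26 genes also called without that library. All points lie near the line of equality and keep their sign, as groups without overlap must.

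The gene with the largest rise among those the naming rule admits was EMILIN2, a glycoprotein of elastic fibres in the extracellular matrix (ENSG00000132205.10, hg19 chr18:2847028-2915991). It had 7.01, 9.65 and 10.3 FPKM in LATS1/2-dKO libraries on 40 kPa, against 5.46, 4.99 and 5.14 FPKM on 1 kPa. The GC-skewed library, the first of these, was the lowest of the stiff group and still lay above all 3 soft ones. The log2 change was 0.67 ± 0.124 (SE; adjusted p = 0.0211) and 0.82 without that library (adjusted p = 0.0081). Of the 13 rises EMILIN2 alone was also called when only that library was left out. Without both GC-skewed libraries 12 of the 13 were called, at the same log2 changes as without that library alone.

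ANKRD1, a nuclear and sarcomeric ankyrin repeat protein and a standard reporter of YAP activity, had 58.0, 45.8 and 49.7 FPKM on 40 kPa, against 38.7, 34.4 and 36.6 FPKM on 1 kPa. Here the GC-skewed library was the highest of the stiff group. The log2 change of 0.47 ± 0.0963 (SE; adjusted p = 0.0339) became 0.38 without that library, where ANKRD1 was not called (adjusted p = 0.129). Without both GC-skewed libraries ANKRD1 was called at the same change of 0.38 (adjusted p = 0.0295). POLN, a DNA polymerase, had 3.17, 2.03 and 1.60 FPKM against 0.903, 0.962 and 0.906 FPKM, and its rise of 0.73 (adjusted p = 0.0291) was likewise not called without that library (adjusted p = 0.107). POLN falls outside the rule for named genes and was chosen after its values were seen.

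A pair of genes of S phase rose. RRM2, the small subunit of ribonucleotide reductase, which makes deoxynucleotides, had 168, 175 and 153 FPKM on 40 kPa, against 126, 115 and 146 FPKM on 1 kPa. The gap between the lowest stiff and the highest soft library was narrow beside the range within either group. Its log2 change was 0.36 ± 0.0712 (SE; adjusted p = 0.0299). DNAJC9, a histone cochaperone, rose by 0.16 (adjusted p = 0.0475), with 17.2, 17.2 and 16.4 FPKM on 40 kPa against 14.8, 14.8 and 15.3 FPKM on 1 kPa. They were the called members among 36 tested genes of DNA replication and G1/S, whose median change was 0.01 with all libraries and -0.03 without 40 kPa replicate 1, and neither was called without 40 kPa replicate 1 (adjusted p = 0.0985 and 0.129).

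The other named rises were modest. MARCKS, an actin-binding substrate of protein kinase C at the plasma membrane, rose by 0.24 to 43.9 ± 2.17 FPKM on 40 kPa, against 37.0 ± 1.58 FPKM on 1 kPa (SD, n = 3 each; adjusted p = 0.0407). RNF138, a ubiquitin ligase of DNA repair, rose by 0.36 to 65.0 ± 2.12 FPKM, against 50.3 ± 3.20 FPKM (SD, n = 3 each; adjusted p = 0.0302). SEC16A, which organises exit sites of the endoplasmic reticulum, rose by 0.19 (adjusted p = 0.0436). GTF2I, the transcription factor TFII-I, and SBDSP1, a pseudogene of a ribosome maturation factor, rose by 0.29 and 0.33 (adjusted p = 0.0257 and 0.022), but both have near-identical copies that may share fragments. None of these 5 was called without 40 kPa replicate 1, where their limma adjusted p ran from 0.073 to 0.12. All 5 were called without both GC-skewed libraries, with the log2 changes of that fit and a limma adjusted p of at most 0.0311.

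KCNC4 and FTH1 were not called with all 6 libraries and rose in the fit without 40 kPa replicate 1, a library that sat with the soft group for both genes. KCNC4, a voltage-gated potassium channel, had 9.05, 14.8 and 13.8 FPKM on 40 kPa, against 8.75, 10.1 and 8.72 FPKM on 1 kPa. FTH1, the heavy chain of the iron store ferritin, had 209, 283 and 278 FPKM on 40 kPa, against 219, 212 and 231 FPKM on 1 kPa. Their log2 changes were 0.59 and 0.35 without the library (adjusted p = 0.0206 and 0.0369) and 0.39 and 0.20 with it (adjusted p = 0.167 and 0.301). FTH1 has many near-identical pseudogenes, so its level is uncertain.

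**Figure D2:**
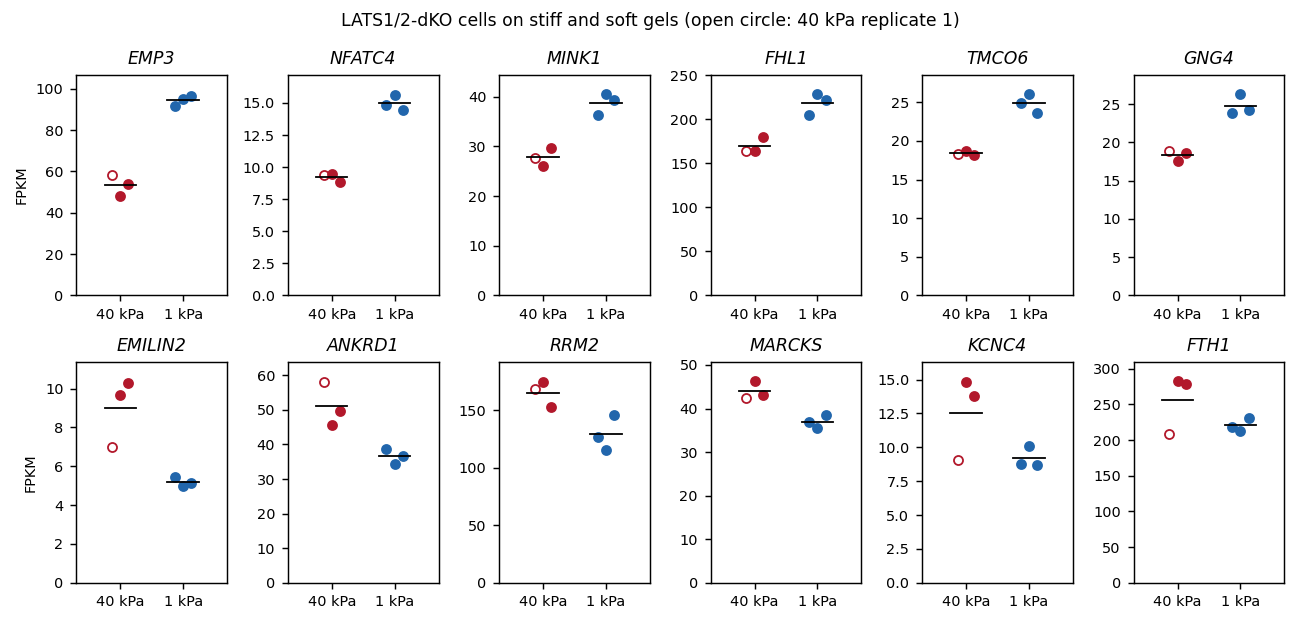
FPKM of 12 genes in each LATS1/2-dKO library on 40 kPa and 1 kPa gels, with the group mean as a line and 40 kPa replicate 1 as an open circle. In the upper row EMP3, NFATC4, MINK1, FHL1, TMCO6 and GNG4 lie lower on 40 kPa in every library. In the lower row the open circle joins the soft group for KCNC4 and FTH1, whereas EMILIN2, ANKRD1, RRM2 and MARCKS do not overlap.

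Among the falls, EMP3 had widely separated groups. EMP3, a tetraspan membrane glycoprotein of the PMP22 family (ENSG00000142227.10, hg19 chr19:48824766-48833810), had 58.5, 48.0 and 53.7 FPKM on 40 kPa, against 91.6, 95.0 and 96.5 FPKM on 1 kPa. The gap between the stiff and the soft libraries was wider than the range within either group. The log2 change was -0.81 ± 0.102 (SE; adjusted p = 0.00317) and -0.88 without the skewed library (adjusted p = 0.00496). After GC correction EMP3 changed by -0.71 and narrowly missed the threshold (adjusted p = 0.0521). Its relative PMP22, a peripheral myelin protein, fell by 0.39 (adjusted p = 0.0401) to 11.0 ± 0.726 FPKM, against 14.6 ± 0.291 FPKM (SD, n = 3 each), and was not called without that library (adjusted p = 0.129). Of the 6 listed members of this family 4 were tested, all 4 with a change below 0 and a median of -0.49, but 3 of 4 and -0.34 without that library, while 59.1% of all genes tested lay below 0.

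Signalling genes with a fall that held without 40 kPa replicate 1 included NFATC4, a transcription factor that calcineurin activates. NFATC4 had 9.42, 9.49 and 8.87 FPKM on 40 kPa, against 14.9, 15.6 and 14.4 FPKM on 1 kPa, so each group spanned far less than the gap between them. Its log2 change was -0.64 ± 0.11 (SE; adjusted p = 0.0135) and -0.65 without the library (adjusted p = 0.0401). GNG4, a gamma subunit of heterotrimeric G proteins, had 18.9, 17.6 and 18.6 FPKM against 23.9, 26.3 and 24.2 FPKM, a fall of 0.41 (adjusted p = 0.00664) that held without the library (adjusted p = 0.0174). MINK1, a kinase of the MAP4K family that can activate LATS kinases, had 27.7, 26.1 and 29.6 FPKM against 36.2, 40.4 and 39.2 FPKM. Its fall of 0.46 (adjusted p = 0.0116; 0.0401 without the library) was the only call among 40 tested Hippo pathway genes, whose median change was 0.01. After GC correction GNG4 was still called (adjusted p = 0.00891), but NFATC4 and MINK1 were not (adjusted p = 0.101 and 0.268).

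Falls that were also called without 40 kPa replicate 1 included METTL3 and COQ9. METTL3, the catalytic subunit of the enzyme that writes N6-methyladenosine on messenger RNA, had 57.4, 55.9 and 59.8 FPKM on 40 kPa, against 69.3, 77.1 and 75.7 FPKM on 1 kPa (log2 change -0.35; adjusted p = 0.0159, and 0.0497 without the library). COQ9, which coenzyme Q synthesis needs, had 60.2, 55.6 and 57.0 FPKM against 74.6, 76.2 and 70.9 FPKM (log2 change -0.35; adjusted p = 0.00664, and 0.0152 without the library). Neither gene overlapped between the gels. COX14, an assembly factor of cytochrome c oxidase, fell by 0.31 to 45.7 ± 2.77 FPKM, against 56.7 ± 1.11 FPKM (SD, n = 3 each; adjusted p = 0.0299, and 0.0401 without the library). DNAJC17, a cochaperone, TMCO6, HYI and the small nucleolar RNA host gene SNHG21 fell by 0.34 to 0.44, and all 4 calls held without the library. After GC correction METTL3 and SNHG21 were still called (adjusted p = 0.00891 and 0.0251). COQ9, COX14, DNAJC17, TMCO6 and HYI were not, at adjusted p from 0.055 to 0.472.

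Several large falls were not called without 40 kPa replicate 1. CCDC78, a coiled-coil protein of centriole formation in multiciliated cells, had 2.72, 4.67 and 4.37 FPKM on 40 kPa, against 6.69, 9.97 and 8.88 FPKM on 1 kPa (log2 change -0.96; adjusted p = 0.0407, and 0.147 without the library). RBM47, an RNA-binding protein of epithelial cells, had 3.03, 5.05 and 3.47 FPKM against 8.91, 7.90 and 7.37 FPKM (log2 change -0.92; adjusted p = 0.0436, and 0.155 without the library). In both genes the skewed library was the lowest of the 6. ENO2, the neuronal enolase, fell by 0.66, NMU, the neuropeptide neuromedin U, by 0.61, PCGF1, a Polycomb protein, by 0.60, and TNFAIP2, which tumour necrosis factor induces, by 0.60. CCBL1, an aminotransferase of the kynurenine pathway, HSD17B8, a mitochondrial dehydrogenase of fatty acid synthesis, SFXN3, a sideroflexin of the inner mitochondrial membrane, ACCS and the antisense RNA EIF3J-AS1 fell by 0.45 to 0.68. None of these 9 was called without the library. When RAP2A/B/C-tKO 40 kPa replicate 3 was left out as well, which changed no LATS1/2-dKO value, CCDC78 and all of the 9 but SFXN3 were called. RBM47 and SFXN3 missed the threshold there (adjusted p = 0.0629 and 0.052). EIF3J-AS1 cannot be told from its overlapping partner, since nothing states whether the counting used strand.

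The most stable call, TPPP3 with a log2 change of -0.73, was not the largest. TPPP3, a tubulin-binding protein, was called in 13 of 14 alternatives, and C2orf72, the phosphatase CTDSP2, FHL1, GNG4 and the linker histone H1F0 in 12. TPPP3, C2orf72, CTDSP2 and H1F0 fall outside the rule for named genes and were chosen after their values were seen. FHL1, a LIM domain protein of muscle and other contractile cells, had 164, 164 and 180 FPKM on 40 kPa, against 205, 229 and 222 FPKM on 1 kPa (log2 change -0.37 ± 0.0491 SE; adjusted p = 0.00384, and 0.0152 without 40 kPa replicate 1). H1F0 had 27.1, 29.9 and 27.7 FPKM against 35.9, 36.6 and 35.4 FPKM. Both genes were lower in every stiff library than in any soft one.

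The rise of TICAM2 by 1.19 and the fall of the TMED7-TICAM2 read-through by 1.10 (adjusted p = 0.04 and 0.022) were the only calls past 1 on the log2 scale, and they share one stretch of chromosome 5. TICAM2 had 2.42, 2.11 and 2.19 FPKM on 40 kPa, against 0.00022, 0.700 and 0.671 FPKM on 1 kPa. TMED7-TICAM2 had 1.13, 0.259 and 0.134 FPKM against 2.48, 2.44 and 1.49 FPKM. Their sum, at 3.55, 2.37 and 2.32 FPKM on 40 kPa against 2.48, 3.14 and 2.17 FPKM on 1 kPa, overlapped between the gels. How fragments were split between the overlapping entries is uncertain, so neither value is read as a change of TICAM2, an adaptor of Toll-like receptor signalling.

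The YAP, TAZ and TEAD signature, 22 genes chosen with earlier results of these data known, had 1 call in LATS1/2-dKO cells. Of its 20 members tested, ANKRD1 rose and none fell by limma, 2 in each direction had an unadjusted p below 0.05, and the median change was 0.05 (0.09 without 40 kPa replicate 1). In WT cells the same 20 genes had a median of 0.15, with 4 called higher. CTGF, a secreted matricellular protein, had 77.8, 84.1 and 83.0 FPKM on 40 kPa, against 67.9, 70.2 and 74.0 FPKM on 1 kPa. The gels did not overlap, but the log2 change of 0.20 ± 0.055 (SE) missed the threshold (adjusted p = 0.0922) and passed it in 3 of 14 alternatives, which were leaving out both GC-skewed libraries (adjusted p = 0.0295), weighting the libraries by quality (0.0172) and correcting for GC content (0.0294). CYR61, its relative, had 115, 156 and 146 FPKM against 118, 121 and 130 FPKM, with the skewed library at the level of the soft gels (log2 change 0.16; adjusted p = 0.445). CYR61 passed the threshold after GC correction (log2 change 0.27; adjusted p = 0.045). It also passed without both GC-skewed libraries (0.29; adjusted p = 0.0199) and with quality weights (0.25; adjusted p = 0.0299). Without both GC-skewed libraries 3 of the 20 signature genes were called, all higher. At the same log2 changes, none was called without 40 kPa replicate 1 alone.

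AMOTL2, an angiomotin that binds YAP, had 50.5, 81.5 and 73.9 FPKM on 40 kPa, against 62.8, 67.3 and 66.6 FPKM on 1 kPa, and the skewed library was the lowest of all 6. Its log2 change was 0.04 ± 0.191 with all libraries (SE; adjusted p = 0.958) and 0.24 without that one (adjusted p = 0.659). MYOF, a ferlin of membrane repair, had the lowest change of the list: 4.67, 4.04 and 4.11 FPKM against 6.02, 5.61 and 5.89 FPKM, without overlap (log2 change -0.38; adjusted p = 0.132). GADD45B, CRIM1 and ARHGEF17 had SEs of 0.284, 0.223 and 0.222 and 40 kPa replicate 1 as the lowest of the 6 libraries, and their adjusted p was at least 0.866. The plot of the signature shows each gene with its SE.

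**Figure D3:**
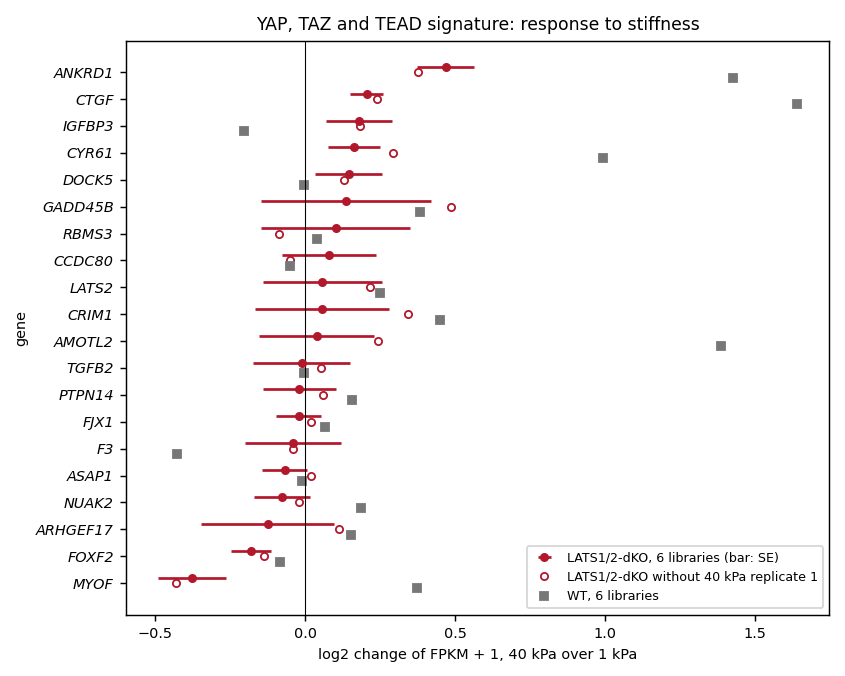
Log2 change of FPKM + 1 on 40 kPa over 1 kPa for the 20 tested genes of the YAP, TAZ and TEAD signature: LATS1/2-dKO cells with SE bars (filled circles), LATS1/2-dKO cells without 40 kPa replicate 1 (open circles) and WT cells (squares). ANKRD1, CTGF, CYR61 and AMOTL2 stand between 0.04 and 0.47 in LATS1/2-dKO cells and between 0.99 and 1.64 in WT cells.

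The bases before the annotated starts of ANKRD1, CTGF and EMILIN2 are shown as 3 genes called higher on stiff gels in WT. In LATS1/2-dKO cells ANKRD1 and EMILIN2 were called with all libraries, and CTGF missed the threshold (adjusted p = 0.0922). All 3 were called without both GC-skewed libraries, and whether their responses differ from one another was not tested. Each window holds the 250 bases before the start (RefSeq, GRCh38.p14, 5′ to 3′ on the gene's strand, where CTGF is named CCN2). Capitals mark GGAATG, the core of the sequence TEAD factors are known to bind, which was searched for on both strands.

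ANKRD1 (chr10:90921088-90921337, minus strand): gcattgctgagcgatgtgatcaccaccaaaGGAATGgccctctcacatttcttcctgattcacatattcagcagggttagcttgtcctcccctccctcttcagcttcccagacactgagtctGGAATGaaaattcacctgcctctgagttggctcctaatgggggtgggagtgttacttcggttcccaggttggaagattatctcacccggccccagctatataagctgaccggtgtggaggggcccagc
CTGF (chr6:131951373-131951622, minus strand): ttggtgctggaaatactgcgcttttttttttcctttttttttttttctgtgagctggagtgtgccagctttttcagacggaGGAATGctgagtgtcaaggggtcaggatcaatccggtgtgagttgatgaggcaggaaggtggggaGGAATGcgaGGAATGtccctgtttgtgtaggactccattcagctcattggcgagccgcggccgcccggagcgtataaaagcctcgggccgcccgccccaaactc
EMILIN2 (chr18:2846756-2847005, plus strand): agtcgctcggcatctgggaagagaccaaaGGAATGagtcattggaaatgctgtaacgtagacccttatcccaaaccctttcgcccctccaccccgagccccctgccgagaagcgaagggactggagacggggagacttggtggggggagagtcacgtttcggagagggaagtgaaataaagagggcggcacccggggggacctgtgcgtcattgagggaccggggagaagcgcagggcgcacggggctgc

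ANKRD1 held 2 matches, their first bases at -220 and -128 from the start, CTGF held 3, at -169, -104 and -95, and EMILIN2 held 1, at -221. Of 35116 such windows over all genes, 11.9% held at least 1 match to GGAATG or its reverse complement CATTCC, 0.928% at least 2 and 0.0797% at least 3. The AP-1 motif TGANTCA occurred at -195 in ANKRD1 and at -217 in EMILIN2, where it overlaps the last bases of the GGAATG match, and in 6.57% of all windows. The EMP3 and NFATC4 windows held neither motif. A match describes the letters only.

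The response of 10 genes differed between LATS1/2-dKO and WT cells in the test of the difference itself, 0.0702% of those tested, with 7 lower (0.0491%) and 3 higher (0.0211%) in LATS1/2-dKO cells. The 7 are all called higher on stiff gels in WT. CTGF changed by 0.20 in LATS1/2-dKO and 1.64 in WT cells, where it had 22.5, 23.4 and 21.7 FPKM on 40 kPa against 6.97, 6.29 and 6.38 FPKM on 1 kPa, a difference of responses of -1.44 ± 0.0777 (SE; adjusted p = 3.9e-09). ANKRD1 changed by 0.47 and 1.43 (difference -0.96; adjusted p = 0.00494) and CYR61 by 0.16 and 0.99 (difference -0.83; adjusted p = 0.0067). ANKRD1 was thus called higher on stiff gels in both genotypes, with a smaller response in LATS1/2-dKO cells.

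AJUBA, a LIM domain protein and partner of LATS kinases, had 55.4, 64.6 and 71.6 FPKM on 40 kPa and 66.5, 66.1 and 71.1 FPKM on 1 kPa in LATS1/2-dKO cells, against 13.8, 16.6 and 16.7 FPKM and 7.21, 6.28 and 7.20 FPKM in WT cells. The LATS1/2-dKO libraries overlapped between the gels and the WT libraries did not (difference of responses -1.17 ± 0.176 SE; adjusted p = 0.0067). KRT8 and KRT18, the paired keratins of simple epithelia, changed by 0.10 and -0.15 in LATS1/2-dKO cells and by 0.74 and 0.70 in WT cells (differences -0.64 and -0.86; adjusted p = 0.00494 and 8.1e-05), although keratin genes have near-identical copies. ANKRD33B was the seventh, with a difference of -0.40 (adjusted p = 0.0074). All 7 differences were also called without 40 kPa replicate 1, at adjusted p of at most 0.0254. For AMOTL2 the difference of -1.35 ± 0.27 (SE) missed the threshold (adjusted p = 0.0671).

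In the opposite direction, TSC22D3, the glucocorticoid-induced leucine zipper, had 1.95, 1.63 and 1.85 FPKM on 40 kPa and 1.51, 1.65 and 1.74 FPKM on 1 kPa in LATS1/2-dKO cells. In WT cells it had 2.95, 2.72 and 2.95 FPKM on 40 kPa and 5.19, 4.22 and 4.52 FPKM on 1 kPa. Its fall in WT had no counterpart past the threshold in LATS1/2-dKO cells, and the responses differed by 0.63 (adjusted p = 0.0369). PDE7A, a phosphodiesterase of cyclic AMP, and the clone-named RP11-226L15.5 differed by 0.47 and 0.60 (adjusted p = 0.0407 and 0.0277). These 3 differences were not called without 40 kPa replicate 1 (adjusted p = 0.0937, 0.0943 and 0.0642).

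Levels in LATS1/2-dKO cells stood above those of WT cells on both gels for all 7 genes with the lower response. The lowest CTGF value on 1 kPa in LATS1/2-dKO cells was 67.9 FPKM, against a highest value of 23.4 FPKM on 40 kPa in WT cells. For ANKRD1 these values were 34.4 and 4.06 FPKM, and for KRT18 427 and 243 FPKM. The plot of levels shows every library of these groups. The genotype difference itself was not tested here.

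**Figure D4:**
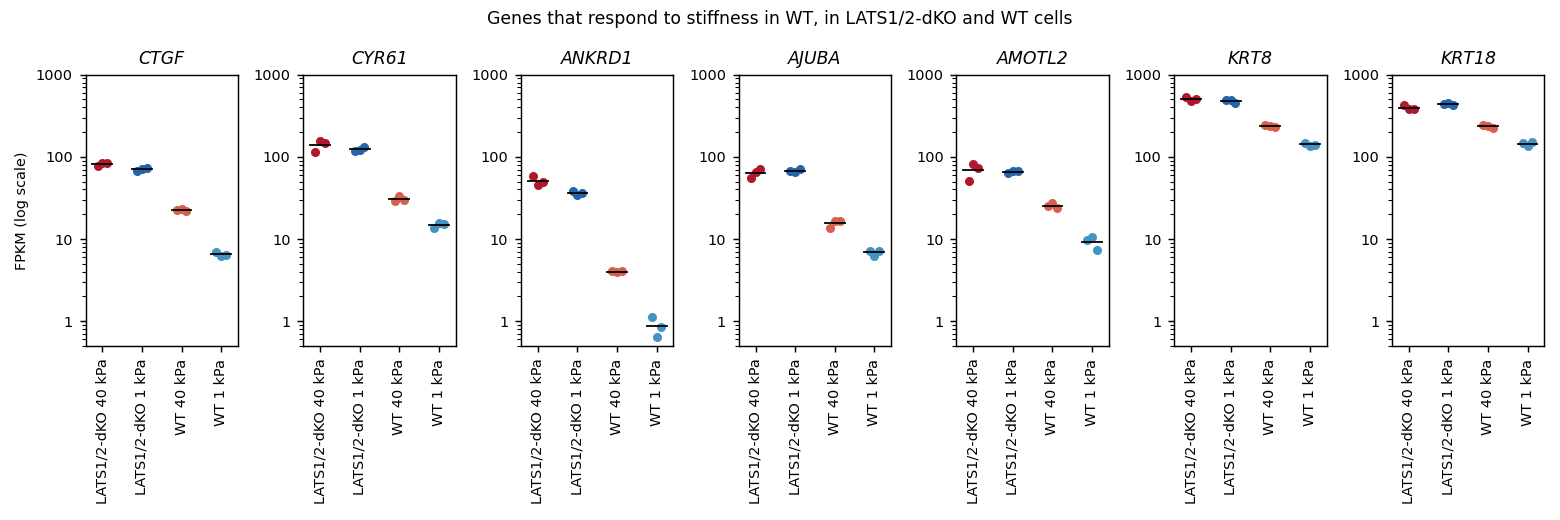
FPKM on a log axis of CTGF, CYR61, ANKRD1, AJUBA, AMOTL2, KRT8 and KRT18 in each library of LATS1/2-dKO cells on 40 kPa and 1 kPa and of WT cells on 40 kPa and 1 kPa, with the group mean as a line. Every LATS1/2-dKO library lies above every WT library in each panel, and the step between the gels is wider in WT cells.

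Genes that fell on stiff gels in WT mostly lay below 0 in LATS1/2-dKO cells too. Of the 103 genes called lower in WT (0.723% of those tested), 89 had a change below 0 in LATS1/2-dKO cells, with a median of -0.16, against a median of -0.39 in WT, where they were chosen for their size. Over all genes tested 59.1% lay below 0, with a median of -0.03. Of the 50 genes called higher in WT (0.351%), 32 had a change above 0 in LATS1/2-dKO cells, with a median of 0.01, against 0.31 in WT. Without 40 kPa replicate 1 the counts were 86 of 103 and 32 of 50, and the medians -0.17 and 0.03. The responses in LATS1/2-dKO and WT cells share no library.

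Of the 120 genes called in LATS1/2-dKO cells 18 were also called in WT, 15% of the first list and 11.8% of the 153 WT calls (1.07% of those tested), all 18 in the same direction (16 lower, 2 higher). The 2 higher were EMILIN2 and ANKRD1. EMILIN2 had nearly the same change in both (0.67 and 0.69), and the difference of its responses was -0.02 ± 0.175 (SE; adjusted p = 0.993). The overlap with RAP2A/B/C-tKO calls was 41 genes (34.2% of the 120 and 6.68% of 614; the RAP2A/B/C-tKO calls made up 4.31% of those tested), 40 of them in the same direction. With YAP/TAZ-dKO calls it was 14 genes (11.7% of the 120 and 24.1% of 58, themselves 0.407% of those tested), 13 in the same direction. The LATS1/2-dKO and RAP2A/B/C-tKO lines each hold a 40 kPa library with a GC skew of the same sign (rank correlation -0.654 and -0.656). The part of this skew in their overlap was not tested.

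EMP3, TPPP3, GNG4 and H1F0 were called lower on stiff gels in all 4 genotypes, and these 4 were the only genes called in all of them. EMP3 changed by -0.81 in LATS1/2-dKO, -0.51 in RAP2A/B/C-tKO, -1.31 in YAP/TAZ-dKO and -0.52 in WT cells. TPPP3 changed by -0.73, -0.92, -1.54 and -0.94, GNG4 by -0.41, -0.72, -0.54 and -0.44, and H1F0 by -0.34, -0.90, -0.36 and -0.58 in the same order of genotypes. These 4 falls were thus also called in the line labelled YAP/TAZ-dKO.

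Against RAP2A/B/C-tKO cells the responses of 26 genes differed (0.183% of those tested), 15 higher (0.105%) and 11 lower (0.0772%) in LATS1/2-dKO cells. ANKRD1 had the largest difference: it changed by 0.47 in LATS1/2-dKO cells and by 2.34 in RAP2A/B/C-tKO cells, where it averaged 32.4 ± 3.74 FPKM on 40 kPa and 5.57 ± 0.443 FPKM on 1 kPa (SD, n = 3 each; difference -1.87 ± 0.136 SE, adjusted p = 6.1e-07). RBM47 moved in opposite directions, with a fall of 0.92 in LATS1/2-dKO cells and a rise of 0.77 in RAP2A/B/C-tKO cells (difference -1.69; adjusted p = 0.0179). The immediate-early gene EGR1 and the stress gene DDIT4 fell by 1.94 and 1.60 in RAP2A/B/C-tKO cells, with changes of -0.43 and -0.31 in LATS1/2-dKO cells (differences 1.50 and 1.29; adjusted p = 0.00102 and 0.000338). EGR1 and DDIT4 were chosen after their values were seen. Both differences were also called without 40 kPa replicate 1 of LATS1/2-dKO (adjusted p = 0.000266 and 0.000311).

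Against YAP/TAZ-dKO cells 12 responses differed (0.0843% of those tested), 5 higher (0.0351%) and 7 lower (0.0491%) in LATS1/2-dKO cells. MINK1 changed by -0.46 in LATS1/2-dKO and 0.35 in YAP/TAZ-dKO cells (difference -0.81 ± 0.109 SE; adjusted p = 0.00241). ANXA1, a phospholipid-binding annexin chosen after its values were seen, fell by 0.39 in LATS1/2-dKO cells and by 1.44 in YAP/TAZ-dKO cells (difference 1.06; adjusted p = 0.000899), and both differences held without 40 kPa replicate 1 (adjusted p = 0.00723 and 0.0026). CTGF, CYR61 and ANKRD1 had responses of 0.20, 0.16 and 0.47 in LATS1/2-dKO cells, against -0.01, -0.08 and -0.02 in YAP/TAZ-dKO cells. In YAP/TAZ-dKO cells CTGF averaged 0.221 FPKM on 40 kPa and 0.230 FPKM on 1 kPa, and ANKRD1 0.0539 and 0.0704 FPKM, so that log2(FPKM + 1) leaves their responses near 0 whatever the gel, and their differences are not read. CYR61 averaged 4.49 and 4.82 FPKM there, and its difference did not pass the threshold (adjusted p = 0.666).

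The lists below are read beside all genes tested, of which 59.1% had a change below 0, with a median of -0.03, and 0.751% were called lower. At an unadjusted p below 0.05, 431 of the 14243 genes were higher (3.03%) and 1471 lower (10.3%). Among 78 tested cytosolic ribosomal proteins 66 had a change below 0 (84.6%) and 4 fell. At an unadjusted p below 0.05, 30 of the 78 were lower (38.5%) and none higher. The list's median was -0.13, and -0.11 without 40 kPa replicate 1 and -0.09 after GC correction, which moved the median of all genes to 0.00. RPS3 had 5066, 4860.0 and 5224 FPKM on 40 kPa, against 5989, 6099 and 5777 FPKM on 1 kPa, without overlap (log2 change -0.24; adjusted p = 0.022). RPL10 and RPL37 fell by 0.34 and 0.25 (adjusted p = 0.0401 and 0.0407), and none of these 3 genes was called without 40 kPa replicate 1 (adjusted p of at least 0.0677). In that fit 1 other gene of the list was called lower, against 0.211% of all genes. Without both GC-skewed libraries, which kept the log2 changes of that fit, 14 of the 78 were called lower, against 2.38% of all genes. Ribosomal protein genes have many processed copies that may share fragments. In WT cells the list's median was -0.02.

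Among 62 genes of oxidative phosphorylation 54 lay below 0 (87.1%), and 47 (75.8%) without 40 kPa replicate 1, and 2 subunits of cytochrome c oxidase fell. At an unadjusted p below 0.05, 16 of the 62 were lower (25.8%) and none higher, against 10.3% and 3.03% of all genes tested. The list's median was -0.09 with and without that library, -0.06 after scaling and -0.05 after GC correction. COX4I1 had 707, 654 and 689 FPKM on 40 kPa, against 798, 791 and 762 FPKM on 1 kPa (log2 change -0.20; adjusted p = 0.0401, and 0.0497 without 40 kPa replicate 1). It was not called after scaling (adjusted p = 0.0914) or GC correction, which left a change of -0.10 (adjusted p = 0.445). COX6B1 fell by 0.30 to 631 ± 24.1 FPKM, against 774 ± 13.6 FPKM (SD, n = 3 each; adjusted p = 0.022, and 0.0939 without that library), and by 0.19 after GC correction, where it was not called (adjusted p = 0.121). TPI1, a glycolytic enzyme, and ENO2 were the 2 falls among 31 hypoxia and glycolysis genes, whose median was -0.06 (-0.03 without that library). TPI1 changed by -0.24 (adjusted p = 0.0401) and, after GC correction, by -0.14 (adjusted p = 0.161). None of the 35 genes of the ATF4 amino acid response was called by limma, 11 had an unadjusted p below 0.05, all lower, and 31 lay below 0 (88.6%), with the lowest median of the lists with at least 5 genes tested, -0.16. It was -0.09 without 40 kPa replicate 1 and -0.10 in WT cells. Without both GC-skewed libraries 2 of the 35 were called higher and 4 lower.

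Of the contractile genes, 25 SRF and MRTF targets had 2 falls, FHL1 and TPM2, and a median of -0.13, against 0.05 in WT cells. Without 40 kPa replicate 1 this median was -0.08, with 15 in place of 20 of the 25 below 0, and after GC correction it was -0.05. TPM2, a tropomyosin, had 2.24, 2.64 and 3.17 FPKM on 40 kPa, against 4.32, 4.10 and 4.51 FPKM on 1 kPa (log2 change -0.53; adjusted p = 0.0401, and 0.139 without 40 kPa replicate 1). Among 37 matrix protein genes EMILIN2 was the only call, at a median of -0.05 (0.05 without that library). By limma none of 41 adhesion genes and none of 24 immediate-early genes was called, while 1 and 0 higher and 8 and 6 lower had an unadjusted p below 0.05. These medians were -0.06 and -0.09, and -0.04 and -0.03 without 40 kPa replicate 1. Among other lists limma called none of 24 unfolded protein and heat shock genes (median 0.05), 60 mitochondrial ribosomal proteins (-0.04), 26 cholesterol synthesis genes (-0.03), 23 p53 targets (-0.0016) or 25 interferon response genes (-0.11). At an unadjusted p below 0.05 these lists held 3, 1, 0, 0 and 0 higher genes and 0, 6, 3, 0 and 3 lower genes. Without both GC-skewed libraries 1, 1, 0, 0 and 0 of their genes were called higher and 0, 4, 1, 0 and 0 lower.

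The medians of several lists depended on 1 library. TGF-beta targets had the highest median, 0.12, and 0.22 without 40 kPa replicate 1. None of 19 was called by limma, with 5 higher and 4 lower at an unadjusted p below 0.05. Without both GC-skewed libraries 4 of the 19 were called higher and 1 lower, against 1.47% and 2.38% of all genes. Notch targets had a median of -0.12 with that library and 0.14 without it, and Wnt targets -0.06 and 0.07. None of these 15 and 13 genes was called, with 1 higher and 2 lower in all at an unadjusted p below 0.05. Mitosis genes had medians of 0.04 with the library and -0.03 without it, and spliceosome genes 0.02 and -0.06. Of these 33 and 34 genes none was called by limma, with 2 higher and 5 lower in all at an unadjusted p below 0.05. When both GC-skewed libraries were left out, 2 spliceosome genes were called higher and 3 lower, and no mitosis gene was called. GC content, depth and the library itself cannot be told apart here.

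**Figure D5:**
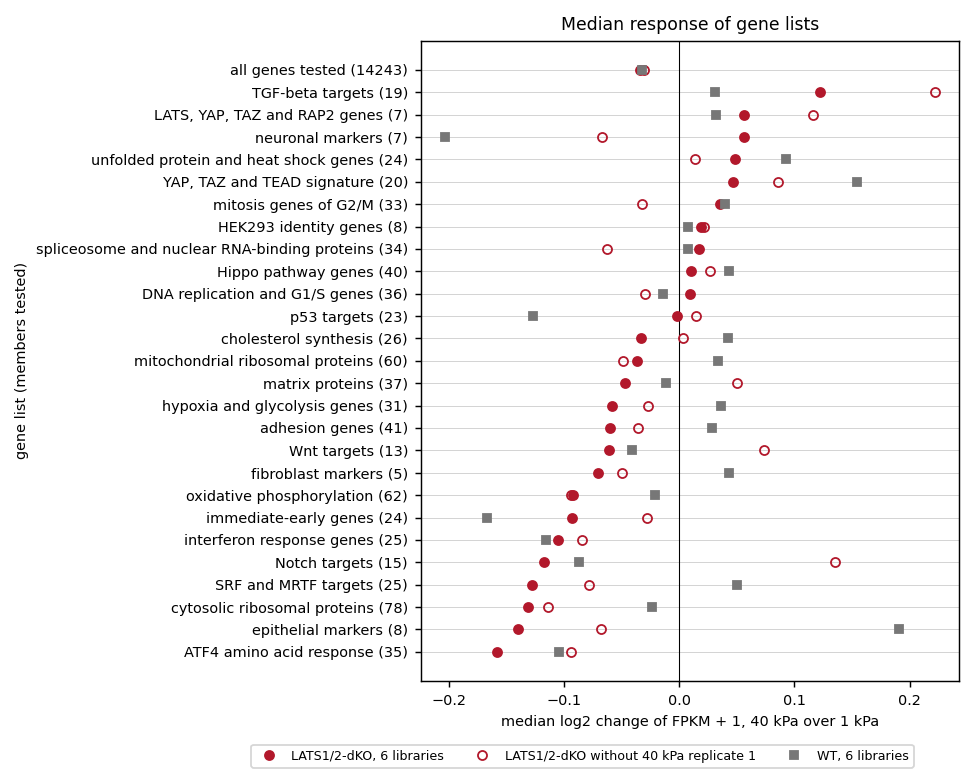
Median log2 change of FPKM + 1 on 40 kPa over 1 kPa for each gene list with at least 5 genes tested: LATS1/2-dKO cells (filled circles), LATS1/2-dKO cells without 40 kPa replicate 1 (open circles) and WT cells (squares). The top row gives all 14243 genes at -0.03, and the Notch and Wnt rows show open and filled circles on opposite sides of 0.

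The labelled cell type was checked against its markers. Of 12 genes typical of HEK293 cells 8 had at least 1 FPKM in every LATS1/2-dKO library. The 12 summed to 1192 to 1250 FPKM on 40 kPa and to 1179 to 1231 FPKM on 1 kPa. Most of this was KRT8, KRT18 and VIM, which averaged 508, 395 and 234 FPKM on 40 kPa. These genes are also among the epithelial or fibroblast markers, so the sum is not specific to the line. The 17 epithelial markers summed to 959 to 1055 FPKM and the 13 neuronal ones to 43.1 to 52.1 FPKM on 40 kPa. Endothelial markers had no gene of 6 at 1 FPKM in every library and summed to 1.20 to 1.55 FPKM on 40 kPa and 1.24 to 1.39 FPKM on 1 kPa. The 8 immune markers summed to 3.18 to 4.45 FPKM on 40 kPa and to 4.95 to 5.41 FPKM on 1 kPa, so the gels did not overlap at this low level, and the part of this in the results was not tested. Fibroblast markers summed to 250 to 290 FPKM on 40 kPa and 255 to 261 FPKM on 1 kPa, mainly the intermediate filament VIM, which HEK293 cells express (234 ± 18.9 and 221 ± 2.87 FPKM; SD, n = 3 each). In bulk libraries fewer cells of a kind and less RNA per cell cannot be told apart.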

How the data were processed

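Messenger RNA was extracted with TRIzol and made into libraries with a stranded poly(A) kit, per the labels' protocols. STAR 2.4.2a, Cufflinks 2.2.1 and hg19 are named in the submitters' processing notes. The sources used here do not give the annotation release, the strand setting or the kit index set of each library. Gene FPKM values per library were deposited by the authors, with a status and a confidence interval per the file headers. Each table has 60350 entries under 58266 symbols. Values of the 338 symbols on several entries were summed, 92 symbols with a failed estimate were left out, and all 37 mitochondrial entries were listed at 0. FPKM values hold no counts, so depth was estimated from the width of the deposited confidence intervals.

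Genes with FPKM of at least 1 in at least 3 of the 6 LATS1/2-dKO libraries were tested as log2(FPKM + 1), which understates changes of low genes. The model, in limma 3.58.1 under R 4.3.3, gave each of the 8 groups its own mean, used all 24 libraries, left 16 residual degrees of freedom and let the spread follow the level. Its tests are two-sided, and Benjamini-Hochberg adjustment ran over all genes within each contrast. Values with ± are mean and SD over n = 3 libraries unless SE is written. The procedure was also run on simulated data with independent noise of equal spread in every library. That simulation held no GC-skewed library, so it does not bear on the skew seen here. An exact permutation test of 3 against 3 libraries cannot go below 0.1. Where a library is left out, its group keeps 2 libraries and shares the spread of the others.

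Members, lists and comparisons were chosen with earlier results of these data known. Named genes were all rises and the 15 largest falls called, the 12 largest calls in each direction without 40 kPa replicate 1 (both without overlap, with a mean of at least 5 FPKM in the higher group, without clone names), the knocked-out genes, the signature of YAP and TEAD activity, and as many as 4 called members of each of 29 lists. A gene labelled TAZ in the files is tafazzin. A called list member is not reported here. Alternatives were another pseudocount (0.1), no filter, scaling, GC correction, quality weights, the 6 libraries alone, a replicate block and leaving out libraries. Matrix stiffness, replicate and genotype follow the labels.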

Additional observations from a re-analysis of the deposited data

Results flagged for a closer look

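Responses to stiffness that differed between LATS1/2-dKO and another genotype are given here for every such gene against WT and, against the other genotypes, for genes named in the text, each by limma's test of the difference at an adjusted p below 0.05, as the log2 response in LATS1/2-dKO cells minus that in the other genotype. Against WT cells the differences were -1.44 for CTGF, -1.17 for AJUBA, -0.96 for ANKRD1, -0.86 for KRT18, -0.83 for CYR61, -0.64 for KRT8 and -0.40 for ANKRD33B. They were 0.63 for TSC22D3, 0.60 for RP11-226L15.5 and 0.47 for PDE7A.

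Against RAP2A/B/C-tKO cells (8 of 26 called differences, 15 of the 26 being higher and 11 lower), whose 40 kPa replicate 3 is also GC-skewed (rank correlation -0.656), the differences were -1.87 for ANKRD1, -1.69 for RBM47, -0.77 for CYR61 and -0.44 for CTGF, and 1.50 for EGR1, 1.29 for DDIT4, 0.99 for TSC22D3 and 0.56 for H1F0. Against YAP/TAZ-dKO cells (7 of 12) they were -0.81 for MINK1, -0.63 for ACCS and -0.55 for TMCO6, and 1.06 for ANXA1, 0.61 for TSC22D3, 0.53 for SBDSP1 and 0.48 for VIM. Of these 25 differences, those of TSC22D3 against WT and YAP/TAZ-dKO, RP11-226L15.5, PDE7A, ACCS and SBDSP1 were not called without LATS1/2-dKO 40 kPa replicate 1, at adjusted p of 0.0937, 0.0755, 0.0642, 0.0943, 0.0755 and 0.0541. The cause of the differences was not tested.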

How the results depend on the processing

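The 120 calls between the gels in LATS1/2-dKO cells became 549 without both GC-skewed libraries, 631 with quality weights (which gave the 40 kPa replicates 0.112, 0.423 and 2.235), 52 after scaling and 3 with the 6 libraries alone, and lay between 17 and 244 when each replicate was left out in turn (244 without 40 kPa replicate 3, 60 or fewer without any other). With the 6 libraries alone none of the 3 was among the 120, 1106 genes had an unadjusted p below 0.05, and only 4 residual degrees of freedom remained. A pseudocount of 0.1 gave 109, no filter 104 and GC correction 88, with 37 shared. The 10 differences from WT became 225 without both GC-skewed libraries, 223 with quality weights, 27 with GC correction, 18 with scaling, 18 without a filter and 4 with the compared libraries alone, and 7 to 50 over the replicates left out (50 without 40 kPa replicate 3). The 26 differences from RAP2A/B/C-tKO became 123, 168 and 66 in the first 3 of these and 1 with the compared libraries alone (9 to 49 over the replicates, with 49 without 40 kPa replicate 1 and 9, 13 and 15 without 1 kPa replicates 2, 3 and 1). The 12 from YAP/TAZ-dKO became 642 without both, 264 with quality weights and 5 with the compared libraries alone (6 without 1 kPa replicate 1 to 23 without 40 kPa replicate 3). Leaving out the RAP2A/B/C-tKO library changed only the shared spread between the gels and against WT and YAP/TAZ-dKO, not the log2 estimates. Besides this and the settings' own loss of samples or degrees of freedom, the cause was not tested. List medians stayed within 1 SD in 327 of 364 values.

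Replicate numbers did not pair the libraries: same-numbered LATS1/2-dKO libraries deviated with correlations of 0.094, 0.018 and 0.014. With a replicate block the counts were 2 between the gels (NFATC4 and TPPP3), 4 against WT, 9 against RAP2A/B/C-tKO and 1 against YAP/TAZ-dKO.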

Other observations

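Genes of retinoic acid handling, singled out after their values were seen and therefore without a test of their own as a group, were among the falls. CRABP2, which carries retinoic acid to its receptors, had 129, 114 and 137 FPKM in LATS1/2-dKO libraries on 40 kPa, against 168, 166 and 154 FPKM on 1 kPa (log2 change -0.36; limma adjusted p = 0.0231). RARB, a retinoic acid receptor that is itself a textbook target of retinoic acid, had 3.11, 3.14 and 2.53 FPKM against 4.48, 4.51 and 4.38 FPKM (log2 change -0.48; adjusted p = 0.0142). DHRS3, a retinaldehyde reductase, had 5.54, 7.40 and 6.83 FPKM against 9.03, 10.2 and 9.19 FPKM (log2 change -0.47; adjusted p = 0.0407). None of the 3 overlapped between the gels, and RARB was also called without 40 kPa replicate 1 (adjusted p = 0.0369), unlike CRABP2 and DHRS3 (adjusted p = 0.0656 and 0.15). After GC correction RARB and DHRS3 were still called (limma adjusted p = 0.00891 and 0.0316), but CRABP2 was not (adjusted p = 0.143).

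The same 3 genes fell in WT cells, by 0.38, 0.48 and 0.62 (adjusted p = 0.00897, 0.0071 and 0.00498), and in RAP2A/B/C-tKO cells, by 0.27, 0.38 and 1.00 (adjusted p = 0.0348, 0.0149 and 1.2e-05). In YAP/TAZ-dKO cells their changes were -0.12, 0.08 and -0.18, none past the threshold. For none of the 3 was the response called different between LATS1/2-dKO and YAP/TAZ-dKO cells (limma adjusted p = 0.513, 0.0899 and 0.656). Of other genes of the pathway, RXRB, a retinoid receptor, was also called in LATS1/2-dKO cells, and in 4 of 14 alternatives. Others were not called there: CYP26A1, which degrades retinoic acid and is induced by it, changed by 0.20 (adjusted p = 0.623), CYP26B1 by -0.50 (adjusted p = 0.0781), RARA by -0.19 (adjusted p = 0.559) and RARG by -0.27 (adjusted p = 0.189).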
